A study of Mus musculus with 12 samples.

Results

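The genes described are 10 transcription factors of limb mesenchyme: Prrx1, Prrx2, Shox2 and Pitx1, which carry paired-class or paired-like homeodomains, the homeobox factors Meox1 and Meox2, the basic helix-loop-helix factors Twist1 and Twist2, and the T-box factors Tbx5 and Tbx15. The 12 lists of ATAC-seq peaks, joined wherever peaks overlapped, gave 153346 regions, each given to one of the 10 genes where that gene was the nearest protein-coding gene interval within 100 kb. This rule gave 122 regions and left no gene without one: Prrx1 had 26, Twist2 20, Meox1 17, Tbx15 17, Pitx1 11, Prrx2 8, Meox2 8, Tbx5 7, Shox2 5 and Twist1 3. The regions farthest inside the distance limit lay 98.5 kb from Twist2 and 98.0 kb from Tbx5, each called in 1 library. The nearest ones beyond it lay 103.9 kb from Twist2, called in 2 libraries, and 106.4 kb from Tbx15, called in 1.

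The series used ATAC-seq, where a transposase cuts and tags accessible DNA, to map open chromatin in mouse cells labelled MSCLCs, an abbreviation that the labels do not spell out. The genotype labels give 5 groups: Wt with 4 libraries, Wt_IGF1 with 1, EF with 4, EF_IGF1 with 2 and EF_IGF1_xeno with 1. The title names EWS::FLI1, the fusion oncoprotein of Ewing sarcoma, IGF-1 and bone mesenchymal stem cells, and the design text names WT, EFPrx1, ha-EFPrx1 and hr-EFPrx1 cells without saying which of the 5 genotype labels each belongs to. Strain, age, IGF1 dose and time, and what xeno stands for were not given in the sources used here. Wt replicates 1 and 2 (titled WT_1 and WT_2) and EF replicates 1 and 2 (lines S_220 and S_221) were sequenced on flowcell BSF_0654. The other 8 libraries were on flowcell BSF_1013: Wt replicate 3 (titled BM), Wt replicate 4 (S_203), Wt_IGF1 (BM), EF replicate 3 (S_220), EF replicate 4 (S_221), EF_IGF1 replicate 1 (S_220), EF_IGF1 replicate 2 (S_221) and EF_IGF1_xeno (S_221). All EF-type libraries thus came from the titles S_220 and S_221, and the labels do not say whether libraries of a group came from separate animals or cultures, so p-values measure only the spread between these libraries, which may be technical.

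In the limb bud, Prrx1 and Prrx2 mark and help to pattern the skeletogenic mesenchyme, Tbx5 and Pitx1 give forelimb and hindlimb their identity, and Shox2 is needed for the proximal limb skeleton. Twist1 and Twist2 hold mesenchymal cells in an undifferentiated state, Meox1 and Meox2 act in somites and limb muscle precursors, and Tbx15 acts in limb and scapular skeleton and in fat. RefSeq lists Prx1 as an older symbol of Prrx1, and transgenes named Prx1 in mouse genetics carry Prrx1 regulatory DNA. Whether these cells carry such a copy was not given in the sources used here, and calls from a copy and from the gene itself cannot be told apart.

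Promoter sequences are shown first because the start sites of these genes differed in how many libraries called the region that holds them. RefSeq (GRCm38.p6) gave an entry for 6 of the 10 genes, and the 250 bases upstream of the start site are printed for the 5 whose start site lay in a called region. The windows are chr1:163313651-163313900 on the minus strand for Prrx1, and on the plus strand chr2:30845117-30845366 for Prrx2, chr12:37108290-37108539 for Meox2, chr12:33957421-33957670 for Twist1 and chr1:91801211-91801460 for Twist2. Capitals mark GGAA on either strand (the core letters of ETS factor sites), TAATTA (a homeodomain core) and CANNTG (the E-box of helix-loop-helix factors).
Prrx1: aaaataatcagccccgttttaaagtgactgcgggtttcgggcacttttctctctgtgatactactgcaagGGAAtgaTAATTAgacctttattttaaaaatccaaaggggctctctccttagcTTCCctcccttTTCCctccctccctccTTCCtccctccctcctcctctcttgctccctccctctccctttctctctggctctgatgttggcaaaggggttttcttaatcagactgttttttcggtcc
Prrx2: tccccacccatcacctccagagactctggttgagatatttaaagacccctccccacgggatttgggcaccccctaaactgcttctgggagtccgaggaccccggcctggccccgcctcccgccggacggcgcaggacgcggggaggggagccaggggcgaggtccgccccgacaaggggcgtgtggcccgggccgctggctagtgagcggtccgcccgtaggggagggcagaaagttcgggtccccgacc
Meox2: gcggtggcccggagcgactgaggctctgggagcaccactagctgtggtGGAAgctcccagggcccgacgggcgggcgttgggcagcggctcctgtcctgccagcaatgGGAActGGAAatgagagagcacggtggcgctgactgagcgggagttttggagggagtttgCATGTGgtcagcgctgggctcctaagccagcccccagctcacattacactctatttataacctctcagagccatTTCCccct
Twist1: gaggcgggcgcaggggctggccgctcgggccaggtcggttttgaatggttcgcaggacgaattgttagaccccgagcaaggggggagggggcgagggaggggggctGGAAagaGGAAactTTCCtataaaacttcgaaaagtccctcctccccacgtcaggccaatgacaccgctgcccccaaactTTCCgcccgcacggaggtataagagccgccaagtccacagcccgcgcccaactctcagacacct
Twist2: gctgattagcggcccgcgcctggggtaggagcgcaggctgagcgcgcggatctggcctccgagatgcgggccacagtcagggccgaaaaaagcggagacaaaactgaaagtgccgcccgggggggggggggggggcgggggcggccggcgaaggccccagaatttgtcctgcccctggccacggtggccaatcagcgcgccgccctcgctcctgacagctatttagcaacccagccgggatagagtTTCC
The Prrx2 window held none of these motifs. Of all 21045 RefSeq windows of this length, 93.1% held GGAA, 62.8% CANNTG and 4.24% TAATTA on at least 1 strand. The Prrx1 window held TAATTA, 4 GGAA and 1 GGAATG (a TEAD-type core that contains GGAA and stood in 11.6% of windows). The Meox2 window held 4 GGAA and 1 CANNTG, the Twist1 window 4 GGAA, the Twist2 window 1 and the Shox2 window, which is not printed, 7. Neither TGANTCA (the AP-1 core, in 6.17% of windows) nor GGTGTGA (a T-box core, in 3.11%) stood in any of the 6. CG dinucleotides numbered 4 in the Prrx1 window, 21 in Prrx2, 12 in Meox2, 18 in Twist1, 23 in Twist2 and 11 in Shox2, beside a median of 10 over all windows. A match is a run of letters only, and nothing on binding follows from it.

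By calls of the region that holds them, the start sites fell into a widely called and a less widely called set. A library's peak in such a region need not cover the start itself. The Twist1 start lay in chr12:33956723-33958305, called in 11 libraries, all except Wt replicate 1. The Twist2 start was called in 10, without Wt replicates 1 and 2. The Prrx1 start region, which begins at chr1:163313268, was called in 7: Wt replicate 4, Wt_IGF1, EF replicates 1, 3 and 4 and both EF_IGF1 libraries. The Prrx2 start region, chr2:30845269-30846170, was also called in 7: Wt replicates 3 and 4, Wt_IGF1, EF replicate 4, both EF_IGF1 libraries and EF_IGF1_xeno. There the peaks of Wt replicate 3 and Wt_IGF1 began at chr2:30845840 and chr2:30845841, downstream of the start at chr2:30845367. The EF_IGF1 replicate 1 peak at Prrx1 and the Wt replicate 2 peak at Twist1 also lay just downstream of the start. The Meox2 start was called in 2, Wt replicate 3 and Wt_IGF1, which share the title BM. The Shox2 start lay in no region, although chr3:66980585-66981723, inside the gene and called in 10 libraries, lay beside it. That region touches Rsrc1 as well, which overlaps Shox2, and cannot be given to either gene alone. Over all 21045 start sites with an entry, the median was 5 libraries, 43.5% were called in 10 or more and 45.8% in 2 or fewer. For the 4 genes without an entry only the gene's ends could be checked: the low-coordinate end of Tbx15 lay in chr3:99240206-99241358, called in Wt replicates 3 and 4, Wt_IGF1 and EF replicate 4, the high-coordinate end of Meox1 in a region called in Wt_IGF1 alone, and no region held an end of Tbx5 or Pitx1.

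The lists differ in length, which touches every count that follows. They held 7748 peaks in Wt replicate 1, 27332 in EF replicate 2 and between 43416 and 83718 in the other 10 libraries. The total reads of each library were not given in the sources used here, but a peak's fold and p fix the reads at its summit, and the weakest peaks rested on 5 to 11 reads. A region without a peak therefore had no call in that library and is not shown to be closed. The fewest summit reads were 11 in Wt replicate 1, the shortest list, and 5 in Wt replicate 3. The lowest local background was 2.29 reads in the former and 0.574 in the latter. Why the Wt replicate 1 list is short was not tested. Peak folds and p-values are the authors' own and only describe or rank peaks within a list.

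Of the 122 limb factor regions, Wt replicate 1 called 0 (95% exact binomial interval 0 to 2.98%). Wt replicate 2 called 14, or 11.5% (interval 6.42 to 18.5). Wt replicate 3 called 49 (40.2%), Wt replicate 4 called 53 (43.4%) and Wt_IGF1 called 76 (62.3%, interval 53.1 to 70.9). The 4 Wt libraries thus split into a pair with few calls, both on BSF_0654, and a pair with many, both on BSF_1013. EF replicates 1 to 4 called 34, 10, 37 and 51 regions, which is 27.9%, 8.2%, 30.3% and 41.8%. EF_IGF1 replicates 1 and 2 called 41 and 46 (33.6% and 37.7%), and EF_IGF1_xeno called 27 (22.1%). The share of all 153346 regions called, the measure of list length, was 4.87% in Wt replicate 1, 38.4% in Wt replicate 2 and 16.7% in EF replicate 2, and lay between 26.7% and 51.9% elsewhere.

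Both Wt libraries on BSF_0654 called a smaller share of limb factor regions than of all regions: the ratio of the 2 shares was 0 in Wt replicate 1 and 0.299 in Wt replicate 2, against 0.995 and 1.14 in Wt replicates 4 and 3 and 1.2 in Wt_IGF1. In the EF-type libraries the ratio was 0.492 in EF replicate 2, 0.857 to 0.987 in EF replicates 1, 3 and 4 and both EF_IGF1 libraries, and under that span in EF_IGF1_xeno (22.1% against 26.7%). With the 20000 strongest peaks of each list, 33 limb factor regions were left, and Wt_IGF1 turned from above its list to below it, with 24.2% against 37.5%. Wt replicate 3 then had 36.4% against 37.4%, and Wt replicate 2 still 3.03% against 37.5%. Averaged over libraries the share of limb factor regions called was 23.8% ± 21.4 (SD, n = 4) in Wt and 27% ± 14 in EF (SD, n = 4), a difference within the spread of either group. On BSF_1013 alone it was 41.8% in Wt and 36.1% in EF, beside 39.5% and 37.6% of all regions. The plot of called shares by library sets both measures side by side.

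**Figure D1:**
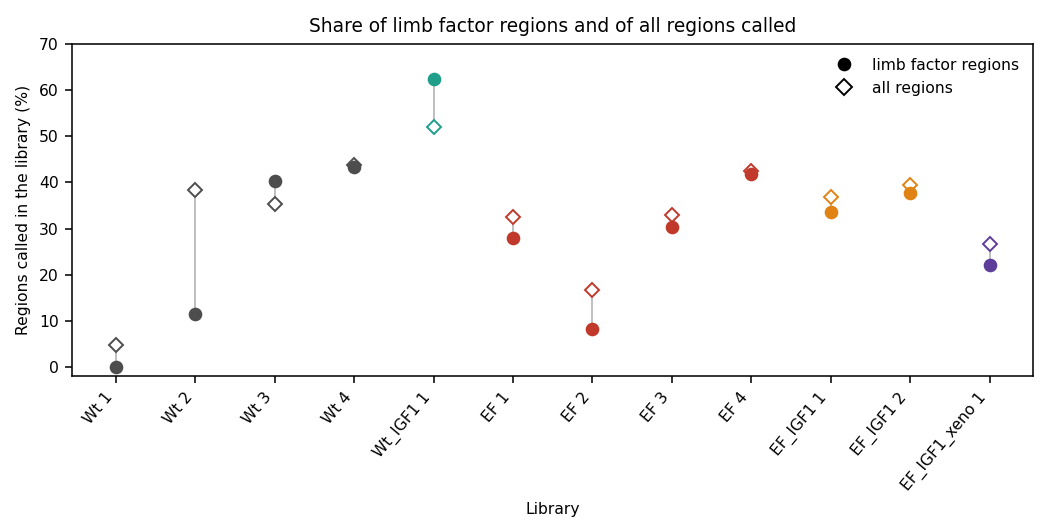
Percent of regions called in each of the 12 libraries, for the 122 regions of the limb factor genes (filled circles) and for all 153346 regions (open diamonds). In Wt replicate 2 the limb factor share, 11.5%, lies far under the 38.4% of all regions, and in Wt_IGF1 it lies above, at 62.3% against 51.9%, which turns with lists of equal length.

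Hematopoietic marker regions were widely called in Wt replicate 2. Wt replicate 1 called few regions of any kind, 4.87% of all regions beside 38.4% in Wt replicate 2. The 12 hematopoietic marker genes had 88 regions, which lay at 11 of them. Of these regions Wt replicate 2 called 77.3%, Wt replicates 3 and 4 and Wt_IGF1 26.1% to 30.7%, EF-type libraries 4.55% to 21.6% and Wt replicate 1 6.82%. Of 205 regions at 12 mesenchymal marker genes, Wt replicate 2 called 23.4%, Wt replicate 1 0.976%, and the other Wt-type libraries 42.9% to 55.6%. In EF-type libraries that share was 19% to 48.3%, and 11 or 12 of the 12 mesenchymal genes had a call in every library other than Wt replicates 1 and 2, with 2 and 9. In Wt replicate 2, 11 of 12 hematopoietic genes had a call, which is every one with a region, and Wt replicate 1 had 4. In both libraries the hematopoietic share lay above the share of all regions and the mesenchymal share below it. In Wt replicate 1 these shares rest on few calls. The part of hematopoietic cells in the low limb factor count of Wt replicate 2 was not tested. The endothelial, muscle, epithelial and neural lists held fewer regions, 72, 23, 36 and 37. Their shares were 0% in Wt replicate 1 and 34.7%, 13%, 33.3% and 24.3% in Wt replicate 2. Over the other 10 libraries they ran from 11.1% to 51.4%, 8.7% to 60.9%, 25% to 58.3% and 13.5% to 51.4%.

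**Figure D2:**
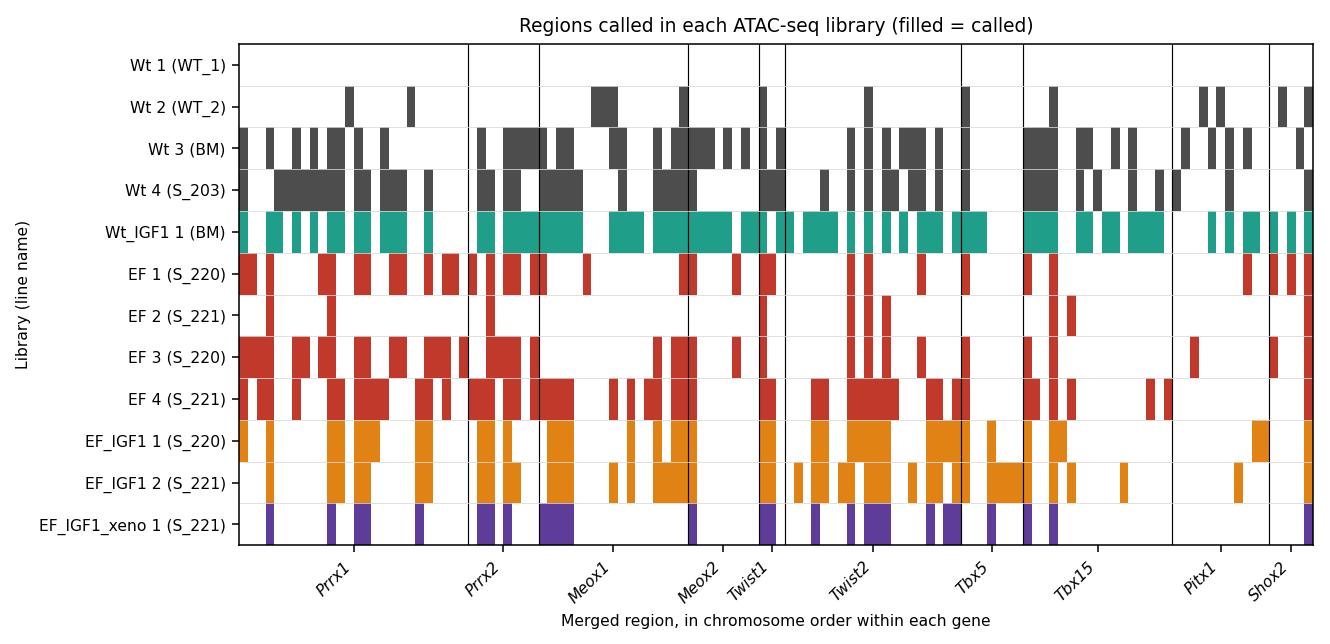
Calls at the 122 regions, one line per region grouped by gene, in the 12 libraries ordered by group. A filled cell is a region with a peak, and the Wt replicate 1 column is empty while Wt_IGF1 is filled at 76 regions.

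Among the paired-class genes, Prrx1 was the one with the most regions: 26, of which 16 touch the gene (chr1:163245119-163315145). The Wt libraries called 0, 2, 8 and 15 of them (replicates 1 to 4), Wt_IGF1 13, the EF libraries 12, 2, 16 and 13, the EF_IGF1 libraries 9 and 7, and EF_IGF1_xeno 5. EF replicates 1, 3 and 4 were among the highest, and Wt replicate 4 lay between EF replicates 3 and 4, so the groups overlap. The mean was 6.25 ± 6.75 in Wt and 10.8 ± 6.08 in EF (SD, n = 4 each; exact two-sided permutation test, p = 0.371). The 3 libraries with IGF1 in an EF label were all under EF replicates 1, 3 and 4, but above EF replicate 2.

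The Prrx1 region called in most libraries, 10 of 12, lies inside the gene at +40.3 kb from the start site and begins at chr1:163273097. It was missed in Wt replicates 1 and 2. The peak fold there was 10.2 in Wt replicate 3, 16 in Wt replicate 4, 12 in Wt_IGF1, 7.62, 10, 5.76 and 13.7 in EF replicates 1 to 4, 16.9 and 8.91 in the EF_IGF1 libraries and 11.8 in EF_IGF1_xeno. The strongest Prrx1 peak by p lay in chr1:163291894-163292429, inside the gene at +21.5 kb, which 8 libraries called. There the summit had 79 reads in EF replicate 4, 74 and 47 in EF_IGF1 and 64 in EF_IGF1_xeno, but 14 to 20 in Wt replicate 4, Wt_IGF1 and EF replicates 1 and 3, counts that also move with each library's depth. A narrower pattern held at chr1:163311644-163312734, at +1.49 kb: it was called in EF replicate 4, both EF_IGF1 libraries and EF_IGF1_xeno, with 84, 80, 72 and 65 reads at the summit, and in none of the other 8. Those summits rest on more reads than the peaks in the start region of the same gene, where the 7 calls had 25 to 38. Of the 26 regions, 8 were called in EF-type libraries only and 5 in Wt-type libraries only, the latter including chr1:163252296-163253211 with folds of 10.6, 10.6 and 7.83 in Wt replicates 3 and 4 and Wt_IGF1.

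Prrx2, the close relative of Prrx1, had 8 regions, 7 of them touching the gene (chr2:30845064-30881251). The Wt libraries called 0, 0, 5 and 4, Wt_IGF1 6, the EF libraries 5, 1, 5 and 6, the EF_IGF1 libraries 3 and 4 and EF_IGF1_xeno 3. The mean was 2.25 ± 2.63 in Wt and 4.25 ± 2.22 in EF (exact permutation test, p = 0.229), and on BSF_1013 alone it was 4.5 and 5.5. The Wt pair on BSF_1013 lay at the level of EF replicates 1, 3 and 4. The regions that begin at chr2:30848208 and chr2:30864455, both in the gene, had a call in 9 libraries each.

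Shox2 and Pitx1 were called at few regions in any library. Shox2 (chr3:66971723-66981771) had 5 regions, called 0, 2, 1 and 1 times in Wt, 3 in Wt_IGF1, 3, 1, 2 and 1 in EF, and 1 in each of the EF_IGF1 and EF_IGF1_xeno libraries. In 10 libraries the region shared with Rsrc1 was among these calls, with folds from 3.89 in Wt_IGF1 to 7.27 in Wt replicate 4. Pitx1 (chr13:55825044-55836190) had 11, called 0, 2, 4 and 2 times in Wt, 4 in Wt_IGF1, 1, 0, 1 and 0 in EF, 2 and 1 in EF_IGF1 and 0 in EF_IGF1_xeno. No EF library called more than 1 Pitx1 region, while Wt replicates 2 to 4 called 2 to 4, and Wt replicate 1 called none, so the groups still overlap. The most widely called Pitx1 regions had 3 calls each: one, 62.7 kb from the gene, in Wt replicates 3 and 4 and Wt_IGF1, and another, 74.8 kb away, in Wt replicate 3, Wt_IGF1 and EF replicate 1. The strongest Pitx1 peak, 59.3 kb away with a fold of 10.8 over 35 reads, was in Wt replicate 2 alone. Means were 2 ± 1.63 in Wt and 0.5 ± 0.577 in EF for Pitx1 (exact permutation test, p = 0.2), and 1 ± 0.816 and 1.75 ± 0.957 for Shox2 (p = 0.486).

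The Meox genes differed from each other. Meox1 (chr11:101877510-101894354) had 17 regions, of which 13 lie outside the gene, and calls of 0, 4, 8 and 10 in Wt, 13 in Wt_IGF1, 3, 0, 3 and 10 in EF, 7 and 9 in EF_IGF1 and 4 in EF_IGF1_xeno. Within EF, line S_221 on BSF_1013 called 10 and the 2 libraries of line S_220 called 3 each, so EF replicate 4 stood with the Wt libraries of that flowcell. The mean was 5.5 ± 4.43 in Wt and 4 ± 4.24 in EF (exact permutation test, p = 0.686). The region with the strongest peaks begins at chr11:101849152, outside the gene. Its fold was 13, 20 and 15.8 in Wt replicates 3 and 4 and Wt_IGF1, 16.4 in EF replicate 4, 19 and 18.8 in EF_IGF1 and 9.64 in EF_IGF1_xeno, and neither EF library of line S_220 had a call. The most widely called region, chr11:101919687-101920055 at 25.3 kb from the gene, had 9 calls: Wt replicates 2 to 4, Wt_IGF1, EF replicates 1, 3 and 4 and both EF_IGF1 libraries, with 13 to 33 reads.

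Meox2 (chr12:37108540-37179534) had 8 regions, called 0, 0, 5 and 1 times in Wt, 7 in Wt_IGF1, 2, 0, 2 and 1 in EF and 1 in each EF_IGF1 and EF_IGF1_xeno library. Both libraries titled BM stood apart from the other 10, of which none called more than 2, and 6 of the 8 regions were called in Wt-type libraries only. The mean was 1.5 ± 2.38 in Wt and 1.25 ± 0.957 in EF (exact permutation test, p = 1). One region carried most of the remaining calls: the one that begins at chr12:37019011, 88.9 kb from the gene, was called in 9 libraries, with folds from 6.07 in EF_IGF1 replicate 2 to 16.6 in EF replicate 4.

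Twist1 (chr12:33957671-33959831) had 3 regions, and its calls were nearly level: 0, 1, 2 and 3 in Wt, 2 in Wt_IGF1, 2, 1, 1 and 2 in EF and 2 in each EF_IGF1 and EF_IGF1_xeno library. The mean was 1.5 in both Wt and EF (SD 1.29 and 0.577, exact permutation test, p = 1). At the start region, the called libraries had 1 or 2 peaks each, with 12 to 101 reads at the summit. Twist2 (chr1:91801461-91848034) had 20 regions, 14 of them outside the gene, with calls of 0, 1, 7 and 8 in Wt, 13 in Wt_IGF1, 3, 3, 4 and 11 in EF, 11 and 12 in EF_IGF1 and 8 in EF_IGF1_xeno. EF replicate 4 was again far above the other 3 EF libraries. The mean was 4 ± 4.08 in Wt and 5.25 ± 3.86 in EF (exact permutation test, p = 0.771).

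The Twist2 region chr1:91816253-91817254, at +15.4 kb inside the gene, was one of 3 limb factor regions called in 11 libraries. Its summit had 11, 42, 82 and 82 reads in Wt replicates 2, 3, 4 and Wt_IGF1, 22, 34, 38 and 131 in EF replicates 1 to 4, 132 and 122 in EF_IGF1 and 109 in EF_IGF1_xeno. The fold over background was 4.32 in Wt replicate 2 and between 10 and 16.3 in the other 10, so it was a strong call in every list that had one except that of Wt replicate 2. The other 2 regions called in 11 libraries were the Twist1 start region and chr3:99253060-99254506 in Tbx15. No limb factor region was called in all 12, since Wt replicate 1 called none, while 5784 of all regions were.

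Tbx15 (chr3:99240348-99354260) had 17 regions, 14 of them touching it, and calls of 0, 1, 8 and 8 in Wt, 12 in Wt_IGF1, 2, 2, 2 and 6 in EF, 3 and 4 in EF_IGF1 and 2 in EF_IGF1_xeno. All 3 Wt-type libraries on BSF_1013 were above all 7 EF-type libraries, whereas Wt replicates 1 and 2 were below every EF-type library. The mean was 4.25 ± 4.35 in Wt and 3 ± 2 in EF (exact permutation test, p = 0.771), and on BSF_1013 alone 8 and 4. Of its regions, 9 were called in Wt-type libraries only and 4 in EF-type libraries only. The strongest peak, in the region that begins at chr3:99372428, 18.2 kb from the gene, had a fold of 17.2 over 67 reads in Wt replicate 4 and 6.39 over 12 reads in Wt_IGF1, with no call elsewhere.

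Tbx5 (chr5:119796514-119885220) had 7 regions, of which 6 lie outside the gene. Calls were 0, 1, 1 and 1 in Wt, 3 in Wt_IGF1, 1, 0, 1 and 1 in EF, 2 and 5 in EF_IGF1 and 1 in EF_IGF1_xeno. The mean was 0.75 ± 0.5 in both Wt and EF (exact permutation test, p = 1). The call that recurred was the region that begins at chr5:119741079, 54.9 kb from the gene, which 9 libraries called with folds from 3.96 in Wt replicate 2 to 13.4 in Wt replicate 4. It was the only Tbx5 call in Wt and in EF.

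**Figure D3:**
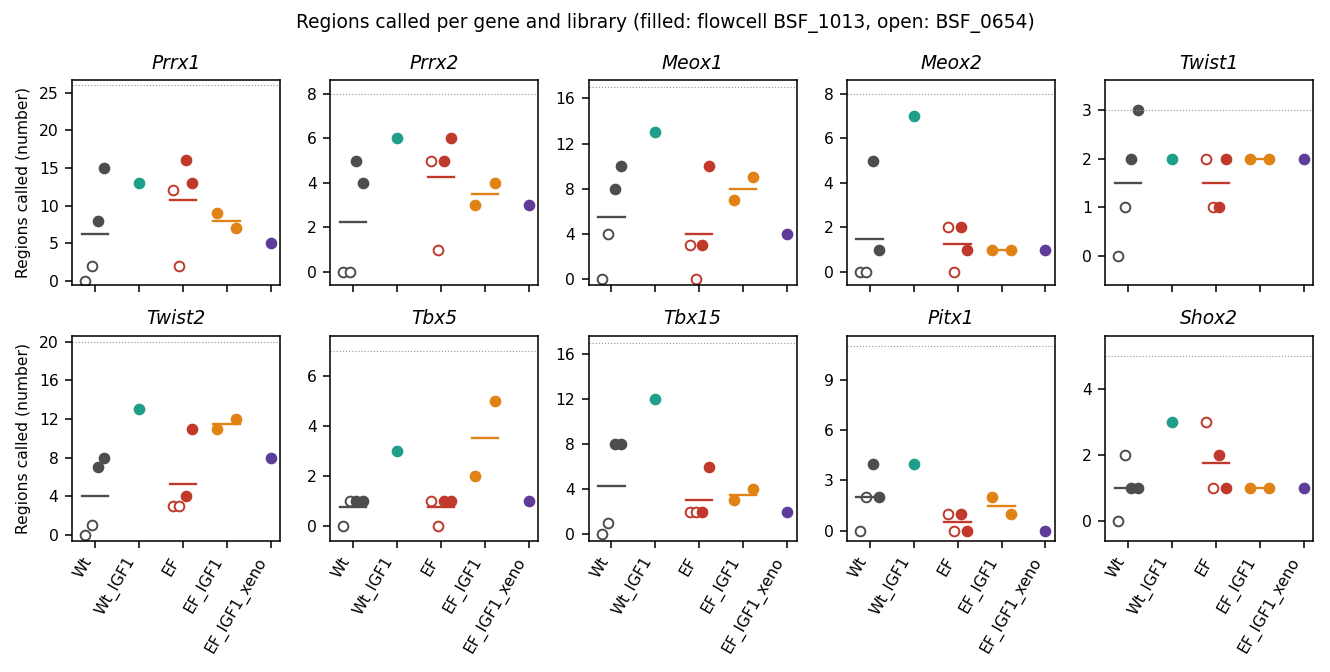
Number of regions called per library at each of the 10 genes, by group, with libraries on BSF_1013 filled, those on BSF_0654 open, lines at the group means and a dotted line at the gene's number of regions. Wt and EF points overlap at every gene, and at Twist2 EF replicate 4, at 11, stands above the other EF libraries at 3 to 4.

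The comparison of EF with Wt asks where calls differ between the genotypes. With a gain defined as a call in 3 or 4 EF libraries and in no Wt library, 1 limb factor region was gained, at Prrx1, which is 0.82% of the 122 beside 1.19% of all regions. The gained share lies near the background. With the mirror rule 0 were lost, beside 0.938% of all regions. Wt replicate 1 called none of the 122, so a loss needed calls in Wt replicates 2, 3 and 4 together. With so few calls in Wt replicates 1 and 2, the 0 says little about loss at these genes. The gained region, chr1:163337728-163338077, lies 22.6 kb outside the gene at -24.3 kb from the Prrx1 start site, the minus sign meaning upstream. It was called in EF replicates 1, 3 and 4 with folds of 6.93, 6.1 and 5.13 over 12, 12 and 11 reads, and in no other library. These are weak peaks: by p they ranked at percentiles 33.8, 20.9 and 7.63 of their lists, counted from the weakest peak. Without EF replicate 1, 3 or 4 the count was 0, without Wt replicate 3 it was 3, and without Wt replicate 4 it was 4. No share of all regions is given for these settings.

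Per gene, the exact permutation test over 70 label orders cannot go below p = 0.0286, and 0 of 18218 genes passed after Benjamini-Hochberg adjustment, with 51 at that smallest p before adjustment. None of the 10 limb factor genes was among those 51, and 0 of the 10 had all EF libraries above all Wt libraries (0.203% of all genes). All EF below all Wt (0.0768% of all genes) could not occur at any of them, since Wt replicate 1 called no region there. With calls scaled to 10000 regions per library the smallest p among them was 0.0857, at Shox2, with 0.171 at Prrx1 and Prrx2. Per region, Fisher's exact test (two-sided, 4 against 4 calls) left 0 of 153346 regions after adjustment, and 344 had the smallest possible p, 0.0286. The smallest p among the limb factor regions was 0.143.

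Within flowcell BSF_1013, where each genotype has 2 libraries, 2 limb factor regions were called in both EF and neither Wt library (1.64%, beside 1.91% of all), and 8 in both Wt and neither EF library (6.56%, beside 4.57% of all). The gained ones were both at Prrx1, the upstream region above and chr1:163198779-163199118, 46 kb outside the gene. The lost ones comprised 3 inside Tbx15 and 1 each at Prrx1, Meox1, Twist1, Twist2 and Pitx1. Inside Tbx15, chr3:99246569-99247004 had 25 and 43 summit reads in Wt replicates 3 and 4, chr3:99263469-99263980 had 18 and 43, and chr3:99298113-99298510 had 17 and 38. Wt_IGF1 called all 3 as well, with 31, 34 and 28 reads, and none of the 7 EF-type libraries called any of them.

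The other lost regions rested on unequal evidence. The Prrx1 region chr1:163252296-163253211 had 39 and 44 summit reads in Wt replicates 3 and 4, while the Twist1 region chr12:33981346-33981739, 21.5 kb outside the gene, had 7 and 11. Pitx1 chr13:55898894-55899350, 62.7 kb outside, had 17 and 12, and Meox1 chr11:101881500-101881960 had 13 and 9. Each of these 4 was also called in Wt_IGF1 and in no EF-type library. The Twist2 region chr1:91857176-91857862 had 22 and 39 reads and was called in EF_IGF1 replicate 2 but not in Wt_IGF1. A comparison chosen after seeing the data set all 4 EF libraries against Wt replicates 3 and 4. With at least 3 of 4 EF libraries for a gain and none for a loss, 1 limb factor region was gained (0.82%, beside 1.49% of all), and the same 8 were lost (6.56%, beside 4.06%). With 1 library fewer the BSF_1013 counts grew, since fewer calls were then required: gains were 4 without Wt replicate 3, 6 without Wt replicate 4, 15 without EF replicate 3 and 9 without EF replicate 4. Losses were 15, 20, 9 and 16 in the same order. No share of all regions is given for these easier rules, so the counts are no result about the limb factors.

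**Figure D4:**
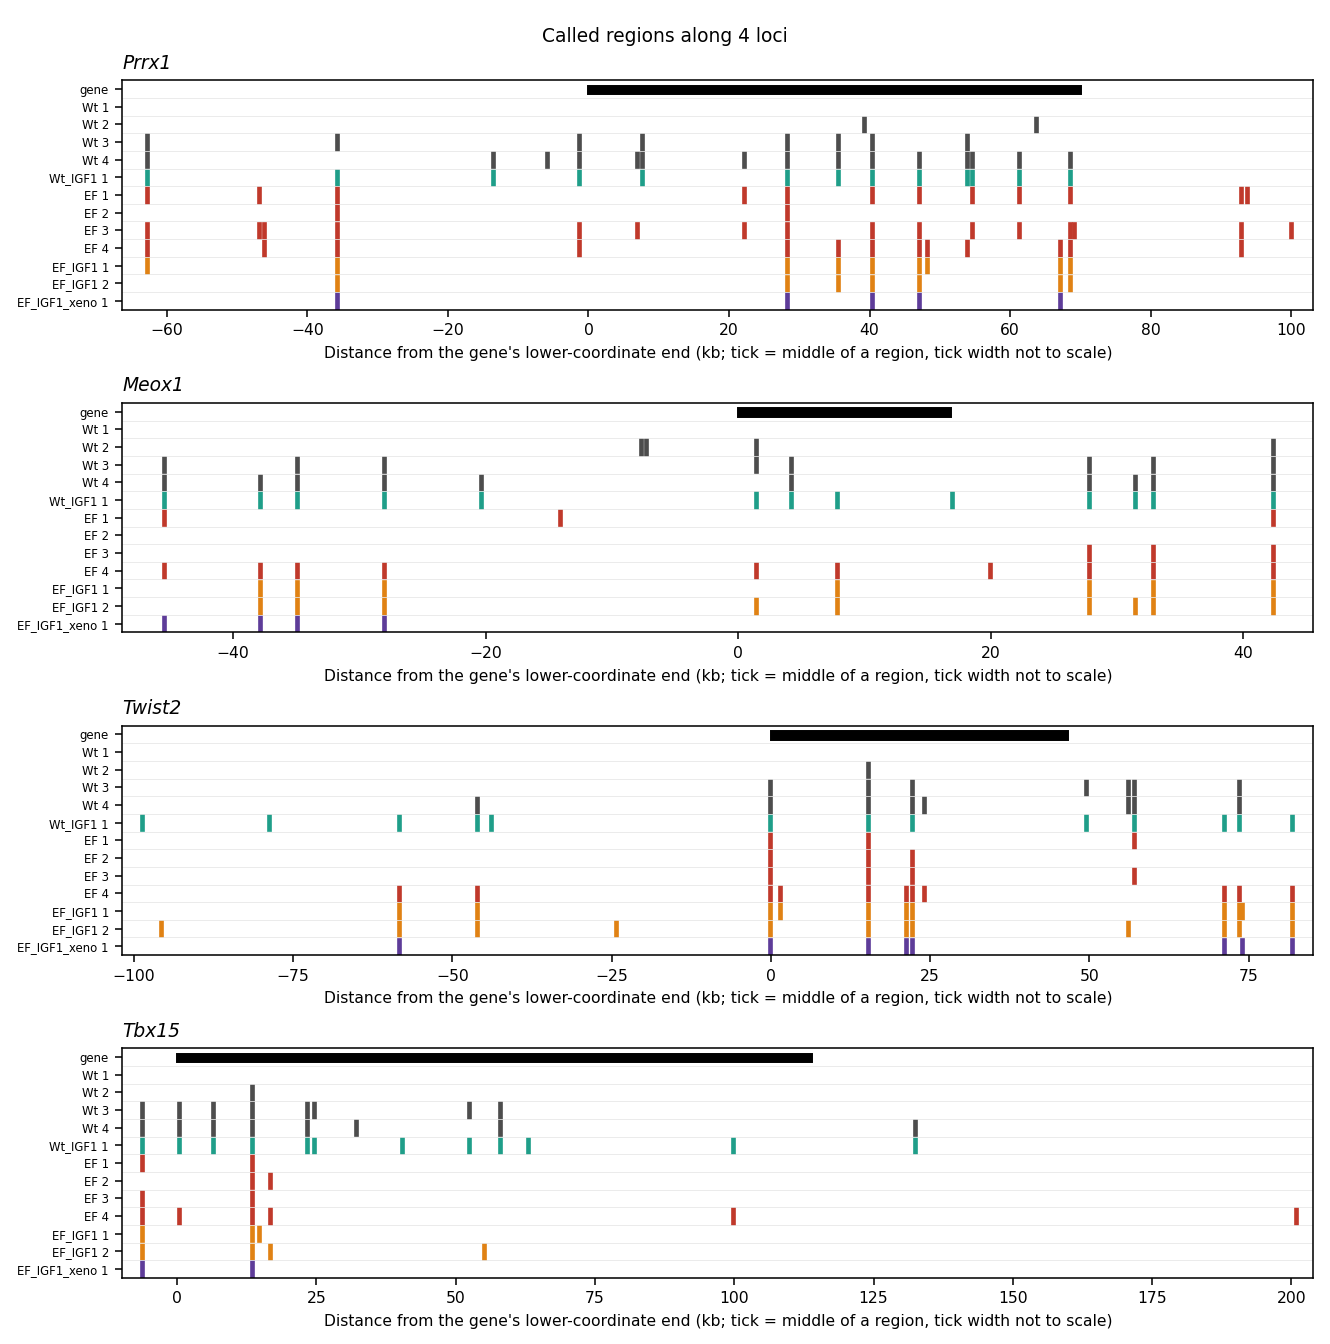
Calls along Prrx1, Meox1, Twist2 and Tbx15, with one row per library and a tick at the middle of each called region, against the distance in kb from the low-coordinate end of the gene. Tick widths are not to scale, and at Tbx15 the ticks of Wt replicates 3 and 4 and Wt_IGF1, 8, 8 and 12 regions, outnumber those of each EF-type library.

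IGF1 in the EF label was compared on BSF_1013, where each group has 1 library titled S_220 and 1 titled S_221. The calls of EF_IGF1 replicate 1, the library labelled S_220, stood with S_221 libraries at regions where the lines differed, so only EF replicate 4 and EF_IGF1 replicate 2 are a pair of 1 line by both title and calls. Between these, chosen after seeing the data, 10 limb factor regions were gained and 15 lost. This sets 1 library against 1, and no share of all regions is given for that rule. The 2 counts are therefore no result about the limb factors. Called in both EF_IGF1 and neither EF library was 1 limb factor region (0.82%, beside 2.7% of all), and the reverse held for 4 (3.28%, beside 2.08% of all). The gained one, chr5:119887400-119887872, lies 2.18 kb outside Tbx5. It was called in both EF_IGF1 libraries and in EF_IGF1_xeno, with folds of 7.81, 13 and 8.21 over 19, 31 and 22 reads, and in no other library, Wt_IGF1 included. The lost ones were 3 at Prrx1 and 1 in Prrx2. At Prrx1 they were both regions gained in EF on this flowcell and chr1:163243510-163244054, 1.06 kb outside the gene. The latter and the Prrx2 region chr2:30875819-30876310 were called in Wt libraries too, and their EF summits had 10 to 16 reads. The EF libraries are shared with the comparison against Wt, so the losses of regions gained there are not separate evidence. Gains were 15 without EF replicate 4, 10 without EF_IGF1 replicate 1 and 5 without EF_IGF1 replicate 2. Losses were 12 without EF replicate 3, 16 without EF replicate 4 and 5 without either EF_IGF1 library. Fewer calls were then required, and no share of all regions is given for these settings.

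Wt_IGF1 is a single library and was set beside Wt replicate 3, which shares its title start BM, with no replicate check. Wt_IGF1 called 30 limb factor regions that Wt replicate 3 did not (24.6%, beside 18.5% of all) and lacked 3 that it called (2.46%, beside 1.98%). Its list was also the longest of the series, with 83718 peaks against 57324. The 30 comprised 7 at Twist2, 5 at Prrx1, 5 at Meox1, 4 at Tbx15, 3 at Shox2, 2 each at Meox2 and Tbx5 and 1 each at Prrx2 and Pitx1. No region at Twist1 was among them. The 3 absent ones were 1 each at Twist2, Pitx1 and Shox2.

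EF_IGF1_xeno, also a single library, called 1 limb factor region that neither EF_IGF1 library had (0.82%, beside 0.794% of all), chr11:101831751-101832404 at Meox1, and lacked 9 that both had (7.38%, beside 6.83%). The Meox1 region had 14 summit reads in EF_IGF1_xeno and was also called in Wt replicates 3 and 4, Wt_IGF1 and EF replicates 1 and 4. The 9 were 4 at Meox1, 2 at Prrx1, 2 at Twist2 and 1 at Tbx5. They include the Prrx1 start region, with 31 and 36 reads in EF_IGF1, and the Tbx5 region at 54.9 kb, with 20 and 21. Against EF_IGF1 of its own line S_221 it gained 2 (1.64%, beside 1.98%) and lacked 21 (17.2%, beside 14.8%). All 4 shares stand near those of all regions, and the EF_IGF1_xeno list was shorter, with 43416 peaks against 59325 and 63506.

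Libraries titled S_221 and S_220 were also set side by side. In a comparison chosen after seeing the data, regions called in all 3 S_221 libraries on BSF_1013 (EF replicate 4, EF_IGF1 replicate 2 and EF_IGF1_xeno) and in neither EF library of S_220 numbered 9 at the limb factors (7.38%, beside 4.98% of all). The reverse, called in both EF libraries of S_220 and in none of the 3, numbered 7 (5.74%, beside 4.69% of all). Both shares stand near those of all regions. The 9 were 4 at Twist2, 3 at Meox1, the Prrx2 start region and the Prrx1 region at +1.49 kb. At Twist2 the region that begins at chr1:91872306 had 65, 40 and 42 summit reads in the 3 S_221 libraries, and the one at chr1:91882864 had 30, 39 and 22. The Meox1 regions lie between 27.7 and 37.6 kb outside the gene. At the one that begins at chr11:101839322 the 3 libraries had 48, 38 and 31 reads. The 7 comprised 4 at Prrx1 and 1 each at Meox2, Twist2 and Shox2.

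EF_IGF1 replicate 1 carries the title S_220 but called 9 of the 9 S_221 regions and 0 of the 7 S_220 regions. Over all regions it called 91.8% of the 7642 that meet the S_221 rule and 2.99% of the 7187 that meet the S_220 rule, beside 36.8% of every region. EF replicate 2, titled S_221 and on BSF_0654, called 0 of the 9 and 0 of the 7. Over all regions it called 30.1% and 1%, beside 16.7% of every region. Among Wt-type libraries Wt_IGF1 called 7 and 4, Wt replicate 3 called 3 and 1, Wt replicate 4 called 4 and 4, and Wt replicates 1 and 2 called none of either. The calls of the library labelled S_220 with IGF1 did not follow the line in its title, but stood with the S_221 libraries of its flowcell. EF replicate 2 called none of the limb factor regions of either rule. Over all regions its calls leaned to S_221, the line in its title. Whether a title names the wrong line was not tested.

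Across libraries the limb factor regions were about as widely called as others: the median was 2 libraries in both, 32% of them were called in 1 library against 36.3% of all, and 12.3% in 9 or more against 16.5%. By side, 41 were called in Wt-type libraries only (33.6%, beside 32.9% of all), 29 in EF-type libraries only (23.8%, beside 22.3%) and 52 in both (42.6%, beside 44.8%). The genes differed in how these fell. Meox2 and Pitx1 had 6 Wt-only regions of 8 and 11, Tbx15 9 of 17, while Prrx1 had 8 EF-only against 5 Wt-only and Tbx5 4 against 2. Such counts rest in part on single libraries. Called in 1 library only were 5 of the 7 regions at Tbx5 and 7 of the 11 at Pitx1. At Tbx15 these were 6 of 17, at Meox2 2 of 8 and at Prrx1 6 of 26. Of the 122 regions 61 touch a gene of the set and 61 lie outside. Regions per 100 kb of the stretch within which each gene is the nearest ranged from 2.86 at Tbx5 to 17.5 at Meox1.

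A wider list of 38 other limb mesenchyme factor genes, each with at least 1 region and 495 in all, was counted beside the 10. EF against Wt gained 6 of these regions (1.21%) and lost 4 (0.808%), and on BSF_1013 9 were gained (1.82%) and 24 lost (4.85%). The 24 included 4 at Zeb1, a zinc-finger factor of the mesenchymal state. EF_IGF1 against EF gained 14 (2.83%), 4 of them at Sall1, a zinc-finger factor of limb and kidney, and lost 17 (3.43%). Sall1 was called at 0 regions in all EF libraries, 4 and 7 in EF_IGF1, 5 in EF_IGF1_xeno, 4 in Wt replicate 4 and 2 in Wt_IGF1, and at 0 in the other 3 Wt libraries. EF_IGF1_xeno lacked 23 regions called in both EF_IGF1 libraries (4.65%) and gained 5 (1.01%). The gene with the most regions was Runx2, the osteoblast factor, with 62. In Wt replicate 2 the share of the 495 regions called was 23.6%, above the 11.5% of the 10 genes and below the 38.4% of all regions.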

How the data were processed

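ATAC-seq libraries of 12 samples were deposited as one peak list each, called per library with MACS2 on GRCm38.p3, per the submitters' processing notes. The sources used here do not give its version or thresholds. Per deposited peak there is the authors' fold enrichment (a ratio of summit reads to local background), −log10 p, −log10 q and an integer score that was not used, with the summit position. Peaks of chromosomes 1 to 19 and X were merged across the 12 lists when they shared at least 1 bp, and a library called a region when it had a peak in it. Regions were given to the nearest of 21631 protein-coding gene intervals of RefSeq GRCm38.p6 within 100 kb, and 89% had one. Coordinates are 1-based. The coordinates of the chromosomes do not differ between patches of GRCm38. Exons and introns were not read.

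Summit reads were solved from the deposited fold and −log10 p under MACS2's Poisson model with a pseudocount of 1, to within 0.001 of the deposited −log10 p, and total reads were not given in the sources used here. Intervals (95%, exact binomial) cover counting error only and take regions as independent, although regions of 1 gene lie close together. Groups came from the genotype labels, and comparisons used call rules, exact permutation tests of regions called per gene (Benjamini-Hochberg over all genes) and Fisher's exact test per region. Every member gene was named whatever its values, with its start region, its widest called and strongest region and each region meeting a rule. Wider list genes were named with 4 or more regions meeting a rule in 1 comparison or as the 2 with most regions, and 1 gene that this rule names is not reported here. The members, the marker lists (mesenchymal, hematopoietic, endothelial, muscle, epithelial, neural) and the wider list were chosen with earlier results of these data known. Alternatives were a −log10 q of at least 5, the 20000 strongest peaks of each list, a 25 kb limit, windows of 250 bp each side of summits in place of peaks, stricter rules, calls scaled to 10000 regions and leaving out each library. The scripts were tested on simulated data. Python 3.11.15, numpy 2.4.6, pandas 2.3.3, scipy 1.17.1 and matplotlib 3.10.9 were used.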

Additional observations from a re-analysis of the deposited data

Results flagged for a closer look

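Of 22 groups of 4 libraries tested for a library far from the rest (the limb factor genes in Wt and in EF, with the sums), 4 had one. The rule's chance rate of about 1 in 20 is for continuous values. It does not apply to these small counts with ties, so no excess can be read from the 4. In Wt, replicate 1 called 0 Tbx5 regions against 1 in each other library, and in EF, replicate 2 called 0 against 1, which are differences of 1 call from the 2 shortest lists. EF replicate 4 called 11 Twist2 regions, the others 3, 3 and 4, and 6 Tbx15 regions, the others 2 each.

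By the lines in their titles, EF and EF_IGF1 libraries on BSF_1013 differed in opposite directions, with 1 library on each side, so the difference was not tested. The S_220 values use EF_IGF1 replicate 1, the library labelled S_220 whose calls stood with the S_221 libraries, and are differences within 1 line only by title. Over all 10 genes the number of regions called differed by 4 for the title S_220 and by -5 for S_221. At Meox1 the differences were 4 and -1, and at Tbx15 1 and -2.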

How the results depend on the processing

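Counts of limb factor regions were 1 gained and 0 lost for EF against Wt, 2 and 8 on BSF_1013, and 1 and 4 for EF_IGF1 against EF. For EF against Wt a loss needed calls in Wt replicates 2, 3 and 4 together, since Wt replicate 1 called none of these regions. At −log10 q of at least 5, the BSF_1013 gain was 1 and the EF_IGF1 loss 1. With the 20000 strongest peaks of each list, the BSF_1013 counts were 0 gained and 2 lost and the EF_IGF1 counts 0 and 0. Within 25 kb of a gene the BSF_1013 gain was 1. With 4 of 4 EF libraries required, the EF gain was 0. Among alternatives chosen after seeing the data, requiring a peak over 50% of the region gave an EF_IGF1 gain of 2, leaving out Wt replicates 1 and 2 gave an EF loss of 8, and line S_221 alone gave 10 gained and 15 lost with IGF1. With each library left out in turn, the EF gain was 0 to 4, the EF loss 0 to 0, the BSF_1013 gain 4 to 15 and loss 9 to 20, and the EF_IGF1 gain 1 to 15 and loss 5 to 16, where fewer libraries met easier rules. No share of all regions is given for the counts with a library left out or for line S_221 alone. These counts therefore cannot be set against the background. EF minus Wt calls reversed at Meox2 without EF replicate 2 (0.167) or Wt replicate 3 (0.917, range -0.75 to 0.917), and at Twist2 without EF replicate 4 (-0.667) or Wt replicate 1 (-0.0833, range -0.667 to 2.58). The share of limb factor regions called, with 33 regions left at 20000 peaks, was then 3.03% in Wt replicate 2, 24.2% in Wt_IGF1, 18.2% in EF replicate 1, 24.2% in EF replicate 2 and 36.4% in EF_IGF1_xeno, beside 36.5% to 37.5% of all regions in these 5, so Wt_IGF1 went from above its list to below it. Causes were not tested. Of the values of single genes and libraries, 103 kept their direction or moved by less than the spread. A replicate block by line gave the same 1 gained and 4 lost, since the rule already needs both titled pairs. It is a block only if EF_IGF1 replicate 1 is of line S_220, as labelled, and its calls stood with S_221 libraries. The planned overlap alternative, over 50% of the shorter of peak and region, is met by every peak, since a peak lies inside its region.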
